A study of Mus musculus with 14 samples.

Results

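The genes of 10 amino acid transporters were followed in the overloaded plantaris muscle of old mice: Slc7a5, Slc3a2, Slc7a8, Slc7a11, Slc7a1, Slc1a4, Slc1a5, Slc38a1, Slc38a2 and Slc38a4. They were taken by name, as the probe sets that the array annotation gives to 1 of these symbols alone, and all 10 were found among the 19938 genes tested. The plantaris, a calf muscle, was made to carry more load by synergist ablation, the surgical removal of the neighbouring gastrocnemius and soleus. Every group was male C57BL/6J mice aged 25 months, for which the labels name no transgene or drug, and the groups differed in the day of overload: 0, 1, 3, 5, 7, 10 or 14. Each day had 2 Affymetrix Mouse Gene 1.0 ST arrays, of which 1 held pooled RNA of left and 1 of right muscles from 6 animals. The labels do not say whether the left and right pools share animals. The days were sampled from different mice, so day and mice cannot be told apart. No array is labelled as sham surgery, so the operation and the load cannot be told apart either.

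Amino acids cross the cell membrane through carriers of several families. LAT1 and LAT2, encoded by Slc7a5 and Slc7a8, carry large neutral amino acids such as leucine, xCT, encoded by Slc7a11, exchanges glutamate for cystine, and each of these light chains needs the heavy chain 4F2hc, encoded by Slc3a2, to reach the surface. CAT1 (Slc7a1) carries arginine and lysine, ASCT1 (Slc1a4) and ASCT2 (Slc1a5) carry small neutral amino acids and glutamine, and the sodium-coupled carriers of the Slc38 family concentrate neutral amino acids inside the cell. In muscle, leucine that enters the fibre activates the growth kinase mTORC1, and the uptake carriers are known to respond at the transcript level to amino acid supply through the transcription factor ATF4.

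Values are the log2 signals as deposited, which lay between 2.35 and 14.8 over all probe sets, with array medians between 7.91 and 7.97. Between sides, Pearson's r across genes was 0.994 to 0.997, and genes are not independent replicates. Differences are given on the log2 scale with their standard error from limma (n = 2 arrays per day), and a difference is called when its p, adjusted over all genes, is under 0.05. The p-values measure the spread between the left and right pools and arrays, which may be largely technical. Right against left did not pass for any of the 10 transporters in limma (0 called, with 0% of all genes called), and at an unadjusted p under 0.05 there were 2, Slc7a11 and Slc1a5, with 10.5% of all genes. On day 0 the left array was the higher one for 9 of the 10 transporters, against 50.4% of all genes, and their median gap between sides was 0.19, against 0.10 over all genes. On day 5 it was the higher one for 1 of the 10, against 48.1% of all genes, with a median gap of 0.14, against 0.087 over all genes. The muscle fibre list stood at a mean log2 signal of 13.9 on both day 0 arrays, as the label of the tissue says. The signals carry no detection call, so none of the genes can be said to be absent.

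On day 1 of overload 9 of the 10 transporters were higher than on day 0 and 0 were lower, with 22.3% of all genes called higher and 22.6% called lower. The exception was Slc38a4. On day 3 there were 8 higher and 1 lower (24.1% and 26.6% of all genes), on day 5 again 8 and 1 (26.4% and 33.7%), on day 7 8 and 1 (26.6% and 36.3%) and on day 10 8 and 1 (25.9% and 34.3%). On day 14 6 were higher and 1 lower (22.9% and 30.5%). The median difference of the 10 genes was 1.22, 1.32, 1.43, 1.10, 0.92 and 0.46 on days 1, 3, 5, 7, 10 and 14, against 0.04, -0.07, -0.12, -0.14, -0.13 and -0.11 over all genes. All 10 passed the moderated F test over the days, as did 79.5% of all genes. Both arrays of a day lay above both of day 0 for 9, 9, 8, 8, 8 and 8 of the 10 genes on days 1, 3, 5, 7, 10 and 14, as did 36.5%, 31.6%, 32.5%, 32.6%, 32.1% and 30% of all genes. They lay below for 0, 1, 1, 1, 2 and 2 of the 10, and for 31.3%, 42.9%, 49.8%, 50.8%, 49.8% and 47% of all genes. The arrays measured whole muscle, in which more cells of a type and more RNA per cell cannot be told apart.

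**Figure D1:**
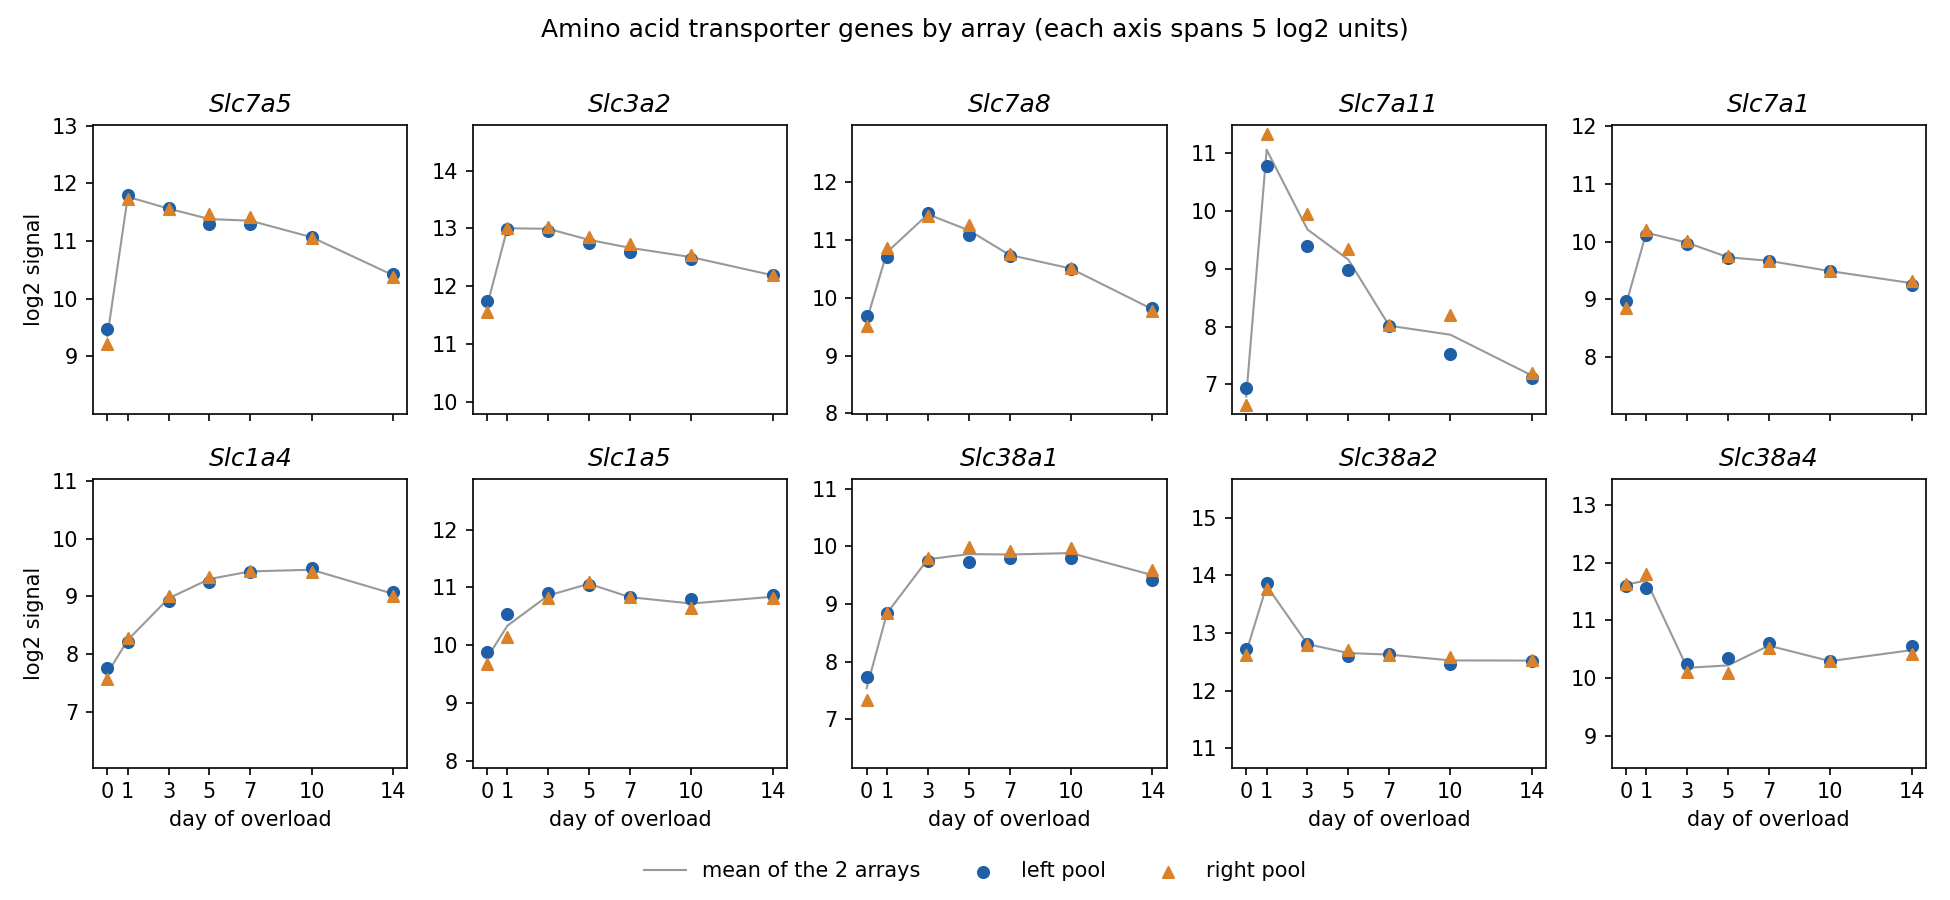
Log2 signal (vertical axes, each spanning 5 log2 units) of the 10 transporter genes on each day of overload (horizontal axes, days), with the left pool as circles, the right pool as triangles and their mean as a line. Slc7a5, Slc3a2, Slc7a11 and Slc7a1 have their highest mean on day 1, Slc1a4, Slc1a5 and Slc38a1 on days 5 to 10, Slc38a2 is high on day 1 and Slc38a4 is low from day 3.

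Both chains of the leucine carrier LAT1 were highest on day 1. Slc7a5 had log2 signals in the left and right pools of 9.48 and 9.22 on day 0, 11.80 and 11.73 on day 1, 11.57 and 11.56 on day 3, 11.30 and 11.46 on day 5, 11.29 and 11.41 on day 7, 11.07 and 11.06 on day 10 and 10.43 and 10.38 on day 14. Both arrays of every later day lay above both of day 0. The signal was 5.34-fold that of day 0 on day 1 (adjusted p = 2.2e-09) and 2.08-fold on day 14 (1.06 ± 0.09, adjusted p = 1.6e-06). The daily means stood in the order of the days from day 1, but neighbouring days up to day 10 did not pass (adjusted p = 0.090 for day 3 against day 1, 0.30 for day 5 against day 3, 0.95 for day 7 against day 5 and 0.16 for day 10 against day 7). Day 14 was lower than day 10 (-0.66 ± 0.09, adjusted p = 0.0026).

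Slc3a2, the heavy chain, had 11.75 and 11.55 on day 0, 12.99 and 13.01 on day 1, 12.96 and 13.03 on day 3, 12.75 and 12.86 on day 5, 12.60 and 12.73 on day 7, 12.47 and 12.54 on day 10 and 12.19 and 12.19 on day 14. Here too every array after day 0 lay above both of day 0, and days 1 and 3 were almost level (adjusted p = 0.93). Its difference was 1.35 ± 0.08 on day 1 (2.55-fold, adjusted p = 8.8e-08) and 0.54 ± 0.08 on day 14 (1.45-fold, adjusted p = 1.9e-04). Day 7 lay below day 1 (-0.34 ± 0.08, adjusted p = 0.0040), and day 14 below day 10 (-0.32 ± 0.08, adjusted p = 0.037).

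Slc7a8, the light chain of LAT2, came later than Slc7a5, with its highest mean on day 3. Its log2 signals were 9.69 and 9.52 on day 0, 10.71 and 10.87 on day 1, 11.47 and 11.42 on day 3, 11.09 and 11.25 on day 5, 10.72 and 10.76 on day 7, 10.50 and 10.52 on day 10 and 9.83 and 9.78 on day 14. It was 1.19 ± 0.09 above day 0 on day 1 (2.28-fold, adjusted p = 3.2e-07) and 1.84 ± 0.09 on day 3 (3.59-fold, adjusted p = 6.6e-09). Day 3 was 0.66 ± 0.09 above day 1 (adjusted p = 8.8e-05). On day 14 both arrays still lay above both of day 0, but the difference of 0.20 ± 0.09 did not pass (adjusted p = 0.070). It passed in 3 alternatives, at 0.31 with the median difference set to 0, at 0.20 with an intensity trend and robust estimation, and at 0.28 without the left array of day 0.

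The heavy chain serves all of these light chains, and their changes were unequal. Within each array the log2 signal of a light chain gene minus that of Slc3a2 was taken, and the change of this difference from day 0 was tested for 5 light chains on 6 days, adjusted over all rows of the fit. Slc7a5 rose more than Slc3a2 on every later day, by 1.07 ± 0.07 on day 1 (adjusted p = 1.6e-07), 0.87 ± 0.07 on day 3, 0.88 ± 0.07 on day 5, 0.99 ± 0.07 on day 7, 0.87 ± 0.07 on day 10 and 0.52 ± 0.07 on day 14 (adjusted p = 6.5e-05). For Slc7a8 the change was -0.16 ± 0.08 on day 1 (adjusted p = 0.10), while with quantile normalization it was called, at -0.30. As deposited, it was positive on days 3 and 5 (0.50 ± 0.08 and 0.42 ± 0.08, adjusted p = 1.3e-04 and 5.0e-04), and it was negative on day 14 (-0.34 ± 0.08, adjusted p = 0.0030). Slc7a11 rose more than Slc3a2 on days 1, 3 and 5, by 2.92 ± 0.21, 1.55 ± 0.21 and 1.22 ± 0.21 (adjusted p = 3.0e-07, 4.5e-05 and 3.0e-04), and the 3 later days did not pass (0.21 ± 0.21, 0.22 ± 0.21 and -0.18 ± 0.21).

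The other partners of 4F2hc in that test, Slc7a6 and Slc7a7, encode y+LAT2 and y+LAT1, which exchange cationic for neutral amino acids. Slc7a7 was level with Slc3a2 on day 1 within the error (-0.07 ± 0.08, adjusted p = 0.54) and rose more than Slc3a2 from day 3, by between 0.99 ± 0.08 on day 3 and 1.20 ± 0.08 on day 10. Slc7a6 changed less than Slc3a2 on days 1 to 10, with -1.14 ± 0.08 on day 1 (adjusted p = 2.1e-07) and -0.35 ± 0.08 on day 10 (adjusted p = 0.0022). Its own difference from day 0 on day 1 was 0.22 ± 0.09 and did not pass (adjusted p = 0.070).

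**Figure D2:**
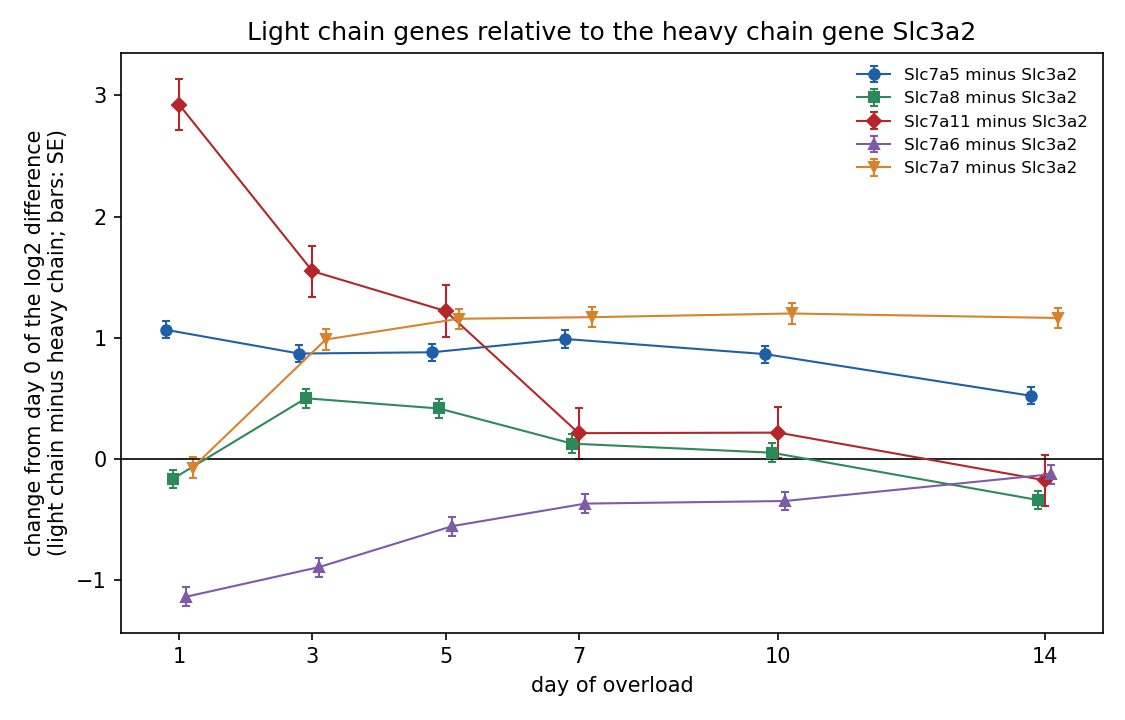
Change from day 0 of the log2 signal of each light chain gene minus that of the heavy chain gene Slc3a2 in the same array (vertical axis), on days 1 to 14 (horizontal axis), with standard errors from limma as bars. Slc7a11 starts at 2.92 and is near 0 from day 7, Slc7a5 stays between 0.52 and 1.07, Slc7a7 is near 1 or above from day 3, and Slc7a6 lies below 0.

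Slc7a11, the cystine carrier that feeds glutathione synthesis, showed the widest range of day means among the 10 genes, 4.27 on the log2 scale. Its log2 signals were 6.93 and 6.65 on day 0, 10.79 and 11.34 on day 1, 9.40 and 9.96 on day 3, 8.97 and 9.35 on day 5, 8.01 and 8.02 on day 7, 7.52 and 8.19 on day 10 and 7.11 and 7.19 on day 14. Both arrays of each later day lay above both of day 0, and the largest gap between sides was 0.67, on day 10, when right was the higher. Day 1 was 19.3-fold above day 0 (4.27 ± 0.24, adjusted p = 3.8e-08), day 3 7.43-fold, day 5 5.18-fold, day 7 2.34-fold and day 10 2.10-fold (1.07 ± 0.24, adjusted p = 0.0022). Day 14 did not pass (0.36 ± 0.24, adjusted p = 0.22), although it passed when the 4 arrays of days 0 and 14 were fitted alone. The steps from day 1 to day 3 (-1.38 ± 0.24, adjusted p = 7.0e-04) and from day 5 to day 7 (-1.14 ± 0.24, adjusted p = 0.047) passed, while those between days 3 and 5, 7 and 10, and 10 and 14 did not (adjusted p = 0.25, 0.84 and 0.088).

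The RefSeq promoter table (GRCm38.p6) held 7 of the 10 genes, with 10 promoters in all, and none was matched for Slc7a5, Slc1a5 and Slc38a1. The 250 bases before each start were searched on both strands for TGATGNAAN, the amino acid response element bound by ATF4 with its partners, for TGACNNNGC, the core of the antioxidant response element bound by NRF2, and for the E-box CACGTG, which MYC and other factors bind. The first was found in 3.44% of all 32851 promoters of the table and in 1 of the 10 transporter promoters, that of Slc7a11. The second was found in 10.2% of all promoters and in 2 of the 10, those of Slc38a2 and Slc7a1, and the third in 6.02% and in 0 of the 10. No matches overlapped. The promoter of Slc7a11 held the first element in both orientations, TGATGCAAA at positions -66 to -58 and TTTGCATCA at -48 to -40 before the start. A match is a run of letters and not a measured binding site. The 3 promoters with a match are printed 5′ to 3′ on the strand of the gene, which is the minus strand in each case, with the matched letters in capitals. Slc7a11 is shown for the largest rise of day 1 and both orientations of the element, at chr3:50443614-50443863. Slc38a2 is shown as the gene whose rise was called on day 1 and on no later day as deposited, at chr15:96699729-96699978, and Slc7a1 as the arginine carrier with the same early course as Slc7a5, at chr5:148399905-148400154.
Slc7a11: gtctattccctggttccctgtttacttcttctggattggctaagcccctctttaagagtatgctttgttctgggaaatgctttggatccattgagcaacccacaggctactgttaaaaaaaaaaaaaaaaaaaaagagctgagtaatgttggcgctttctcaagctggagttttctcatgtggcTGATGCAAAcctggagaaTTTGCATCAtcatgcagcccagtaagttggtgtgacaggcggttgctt
Slc38a2: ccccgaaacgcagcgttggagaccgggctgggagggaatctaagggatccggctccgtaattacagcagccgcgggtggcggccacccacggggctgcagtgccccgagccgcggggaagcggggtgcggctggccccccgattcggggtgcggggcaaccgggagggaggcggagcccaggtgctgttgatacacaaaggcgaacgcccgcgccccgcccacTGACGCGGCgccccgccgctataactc
Slc7a1: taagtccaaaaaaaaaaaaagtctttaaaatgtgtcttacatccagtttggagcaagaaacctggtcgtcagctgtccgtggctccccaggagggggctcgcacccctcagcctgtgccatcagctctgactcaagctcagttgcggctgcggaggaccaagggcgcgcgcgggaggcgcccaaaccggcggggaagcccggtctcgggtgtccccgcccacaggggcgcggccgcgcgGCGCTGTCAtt

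Slc7a1, the carrier of arginine and lysine, was highest on day 1. Its log2 signals were 8.96 and 8.84 on day 0, 10.11 and 10.20 on day 1, 9.96 and 10.01 on day 3, 9.72 and 9.74 on day 5, 9.67 and 9.66 on day 7, 9.49 and 9.49 on day 10 and 9.25 and 9.32 on day 14. The arrays of each later day lay above both of day 0, and the gap between sides was 0.12 at most. Slc7a1 was 1.25 ± 0.07 above day 0 on day 1 (2.38-fold, adjusted p = 4.3e-08) and 0.38 ± 0.07 on day 14 (1.30-fold, adjusted p = 8.1e-04). Neighbouring days in its order did not pass except day 14 against day 0, with day 3 against day 1 at adjusted p = 0.066 and day 5 against day 3 at 0.057. With quantile normalization the difference on day 14 was 0.23.

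The glutamate-family carriers of neutral amino acids rose later. Slc1a4, which encodes ASCT1, a carrier of alanine, serine and cysteine, had 7.76 and 7.58 on day 0, 8.20 and 8.28 on day 1, 8.93 and 9.01 on day 3, 9.26 and 9.34 on day 5, 9.42 and 9.44 on day 7, 9.49 and 9.43 on day 10 and 9.08 and 9.01 on day 14. Each daily mean was above the one before it until day 10, and all arrays after day 0 lay above both of day 0. It was 0.58 ± 0.08 above day 0 on day 1 (1.49-fold, adjusted p = 6.4e-05) and 1.80 ± 0.08 on day 10 (3.47-fold, adjusted p = 3.6e-09). Day 3 was 0.72 ± 0.08 above day 1 (adjusted p = 2.1e-05) and day 5 0.33 ± 0.08 above day 3 (adjusted p = 0.026), while days 5, 7 and 10 were not told apart (adjusted p = 0.58 for day 7 against day 5 and 0.93 for day 10 against day 7). Day 14 was lower than day 10 (-0.42 ± 0.08, adjusted p = 0.0092), and still 2.60-fold above day 0.

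Slc1a5, which encodes the glutamine carrier ASCT2, had 9.89 and 9.67 on day 0, 10.54 and 10.13 on day 1, 10.91 and 10.81 on day 3, 11.04 and 11.09 on day 5, 10.84 and 10.83 on day 7, 10.80 and 10.65 on day 10 and 10.87 and 10.81 on day 14. The sides differed by 0.41 on day 1, when the left array was the higher, and no later day overlapped with day 0. Slc1a5 was 0.56 ± 0.12 above day 0 on day 1 (1.47-fold, adjusted p = 0.0019), and 0.36 without the left array of that day. It was 1.29 ± 0.12 above day 0 on day 5 (2.44-fold, adjusted p = 1.4e-06) and 1.06 ± 0.12 on day 14 (2.09-fold, adjusted p = 1.3e-05). Its order of days was 5, 3, 14, 7, 10, 1 and 0, and no neighbours among the first 5 of these passed (adjusted p between 0.37 and 0.98), while day 10 stood 0.38 ± 0.12 above day 1 (adjusted p = 0.015).

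The 3 sodium-coupled carriers of the Slc38 family followed different courses. Slc38a1 (SNAT1), a glutamine and alanine carrier, had 7.74 and 7.34 on day 0, 8.84 and 8.84 on day 1, 9.74 and 9.80 on day 3, 9.73 and 9.99 on day 5, 9.79 and 9.92 on day 7, 9.80 and 9.96 on day 10 and 9.42 and 9.58 on day 14. Its day 0 arrays were 0.41 apart, and all later arrays lay above both. It was 1.30 ± 0.13 above day 0 on day 1 (2.46-fold, adjusted p = 4.1e-06), then between 2.23 ± 0.13 and 2.34 ± 0.13 on days 3 to 10 (4.71-fold to 5.07-fold), and 1.96 ± 0.13 on day 14 (3.89-fold, adjusted p = 1.4e-07). Days 3, 5, 7 and 10 were not told apart, and day 14 lay 0.66 ± 0.13 above day 1 (adjusted p = 0.0010). Slc38a1 alone had a second probe set, with log2 signals of 6.17 and 6.16 on day 0. That probe set stood 0.29 ± 0.11 above day 0 on day 1, which did not pass in a fit of all probe sets (adjusted p = 0.060), and 1.06 ± 0.11 on day 3 (adjusted p = 6.1e-06). With the mean of both probe sets the difference of Slc38a1 on day 1 was 0.79.

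Slc38a2 (SNAT2), the carrier whose transcript is known from cultured cells to rise in amino acid shortage, was called on day 1 and on no later day as deposited. Its log2 signals were 12.72 and 12.61 on day 0, 13.87 and 13.77 on day 1, 12.82 and 12.80 on day 3, 12.61 and 12.70 on day 5, 12.64 and 12.61 on day 7, 12.47 and 12.58 on day 10 and 12.52 and 12.53 on day 14. Day 1 was 1.15 ± 0.07 above day 0 (2.22-fold, adjusted p = 1.3e-07), and day 3 was lower than day 1 (-1.01 ± 0.07, adjusted p = 1.0e-06). From day 3 to day 14 its differences from day 0 were 0.14, -0.01, -0.04, -0.14 and -0.15, each ± 0.07, and did not pass (adjusted p between 0.12 and 0.87). The sign on days 5 and 7 turned with quantile normalization, and with equal array medians days 7, 10 and 14 were called lower, at -0.19, -0.28 and -0.26. With the median difference from day 0 set to 0, day 3 was called higher, at 0.21.

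Slc38a4 (SNAT4), a neutral amino acid carrier that is imprinted in the mouse, was the member that fell. Its log2 signals were 11.60 and 11.64 on day 0, 11.57 and 11.81 on day 1, 10.25 and 10.11 on day 3, 10.35 and 10.09 on day 5, 10.61 and 10.52 on day 7, 10.29 and 10.30 on day 10 and 10.55 and 10.42 on day 14. Day 1 overlapped with day 0 (0.07 ± 0.11, adjusted p = 0.63), and both arrays of each day from day 3 lay below both of day 0. It stood at -1.44 ± 0.11 on day 3 (2.72-fold lower, adjusted p = 2.0e-07) and at -1.14 ± 0.11 on day 14 (2.20-fold lower, adjusted p = 2.5e-06). Its order of days was 1, 0, 7, 14, 10, 5 and 3, and among neighbours in that order day 7 against day 0 passed (-1.06 ± 0.11, adjusted p = 2.7e-06) and the others did not. Days 7 and 14 lay above day 3, by 0.38 ± 0.11 and 0.31 ± 0.11 (adjusted p = 0.025 and 0.039).

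**Figure D3:**
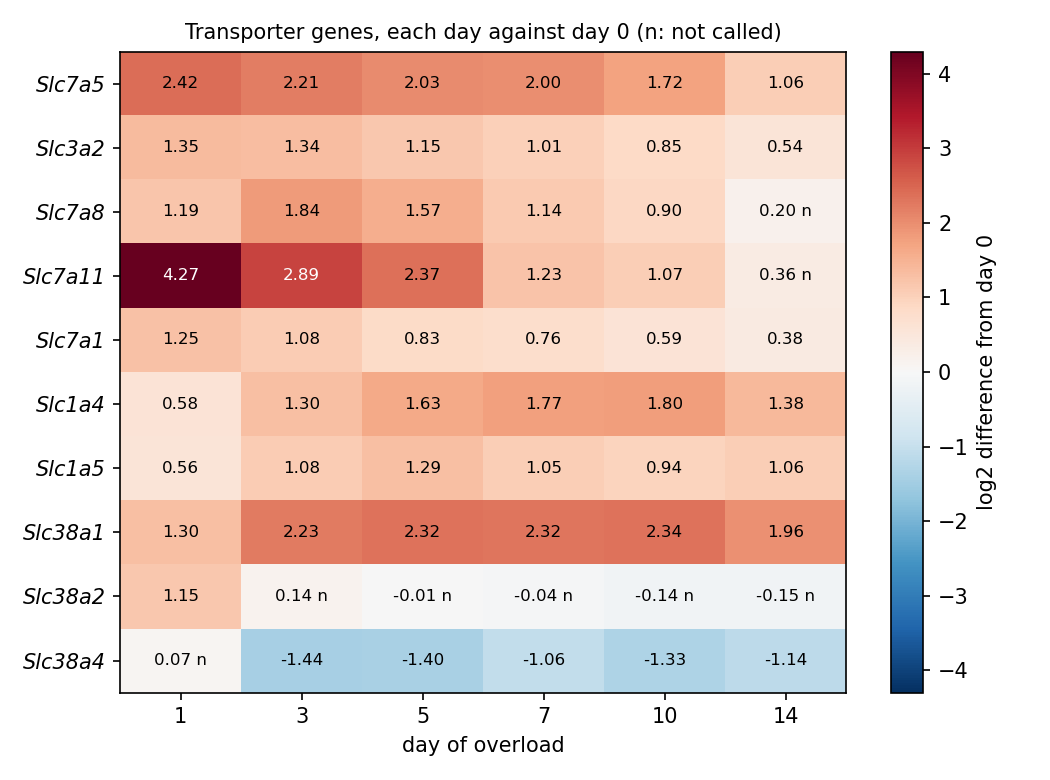
Log2 difference from day 0 (colour and number) of each transporter gene (rows) on each later day (columns). Cells marked n did not pass at an adjusted p of 0.05, which are Slc7a8 and Slc7a11 on day 14, Slc38a2 from day 3 and Slc38a4 on day 1.

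Set against each other, the later days split the genes into early and late courses. On day 3 against day 1 Slc7a8, Slc1a4, Slc1a5 and Slc38a1 were higher and Slc7a11, Slc38a2 and Slc38a4 lower (4 higher and 3 lower, with 19.5% and 24.7% of all genes called). On day 14 against day 1 Slc1a4, Slc1a5 and Slc38a1 were higher, by 0.80 ± 0.08, 0.50 ± 0.12 and 0.66 ± 0.13, and the other 7 were lower, with 23.7% of all genes higher and 36.7% lower. Among those 7 Slc7a11 stood at -3.91 ± 0.24, Slc7a5 at -1.36 ± 0.09, Slc38a2 at -1.30 ± 0.07 and Slc38a4 at -1.21 ± 0.11, with Slc7a8, Slc7a1 and Slc3a2 between -0.99 and -0.81. Day 5 against day 1 gave 4 higher and 5 lower (23.6% and 37.8% of all genes), day 7 against day 1 gave 3 and 6 (24.8% and 40.2%) and day 10 against day 1 gave 3 and 7 (24.5% and 39.3%). Slc1a4, Slc1a5 and Slc38a1 were the higher ones in each, joined by Slc7a8 on day 5. Day 5 against day 3 gave 1 higher, Slc1a4, and 0 lower (4.68% and 1.9% of all genes). On day 7 against day 3 Slc1a4 and Slc38a4 were higher and 4 genes lower (9.71% and 7.45%), on day 10 against day 3 1 was higher and 6 lower (13.6% and 12.8%), and on day 14 against day 3 1 was higher, Slc38a4, and 6 lower (17.4% and 17.8%). Against day 5, 0 were higher on days 7, 10 and 14 (0.401%, 5.98% and 13.1% of all genes) and 2, 5 and 6 were lower (0.627%, 5.99% and 14%), and against day 7, 0 were higher and 6 lower on day 14 (8.23% and 10.5%). Slc7a5, Slc3a2, Slc7a11, Slc7a1 and Slc7a8 were among the lower genes on days 10 and 14 in each comparison with days 3 and 5. Of 10 transporters 0 were called between days 10 and 7 in limma, with 0.933% of all genes called higher and 1% lower. At an unadjusted p under 0.05 there were 4, for which the share of all genes was not computed. Between days 14 and 10 Slc7a5, Slc3a2, Slc7a8 and Slc1a4 were lower (4 of 10, 5.11% of all genes) and 0 higher (3.79%).

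The genes with the most similar course were sought by Pearson's r over the 7 day means, among the 4282 named genes whose means spanned at least 1 log2 unit, with no test, since all share the same 14 arrays. For Slc7a5 these were Rpl12, Tes and Dubr (r between 0.993 and 0.996), and for Slc3a2 Ehd1, Csf2ra and Sh3bp2 (0.997 to 0.999). Slc7a5 and Slc3a2 themselves correlated at 0.99. For Slc7a11 they were Csf3r, the receptor of the granulocyte growth factor, the inflammasome gene Nlrp3 and the decoy receptor Il1r2 (0.996 to 0.998), and for Slc7a1 Nr2c2ap, the metallothionein Mt1 and Myc (0.992 to 0.995). Slc7a8 was nearest to Plcb2, Parvg and Plcg2 (0.990 to 0.995). Slc1a4 was nearest to Adam12, Sdc1 and Txndc5 (0.998 to 0.999), Slc1a5 to Dram1, Fam102b and Cfb (0.988 to 0.991) and Slc38a1 to the elongation factor Eef1a1, Ppib and Mdfic (0.997 to 0.998). Slc38a2 was nearest to Tbc1d15, Taf4b and the chemokine Ccl4 (0.994 to 0.996), and Slc38a4 to Nfyb, Zic1 and Kcnf1 (0.978 to 0.979).

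Several cell types changed their marker signals over the same days. Of all genes, 22.3% were called higher and 22.6% lower on day 1, 24.1% and 26.6% on day 3, and 26.4% and 33.7% on day 5. The shares were 26.6% and 36.3% on day 7, 25.9% and 34.3% on day 10, and 22.9% and 30.5% on day 14. All 14 macrophage and monocyte genes were higher on days 3 and 5, and 11 of 14 on day 1, with a summed linear signal in the left and right pools, in units of 1000, of 28.3 and 30.0 on day 1, 58.5 and 57.0 on day 3 and 31.6 and 34.1 on day 14, against 11.3 and 8.15 on day 0. Of 12 neutrophil genes 10 were higher and 1 lower on day 1, 5 higher and 3 lower on day 3, 4 higher and 7 lower on day 7, and 0 higher and 9 lower on day 14, with sums of 32.7 and 29.9 on day 1 and 3.47 and 4.18 on day 14, against 12.7 and 8.88 on day 0. Csf3r and Il1r2, which were nearest to Slc7a11 in course, belong to that list and were still higher on day 7, by 0.87 and 0.97. Other genes of the list were not, such as S100a8 and Retnlg, at -1.01 and -1.64 on day 7, when Slc7a11 was 1.23 above day 0. Of 16 muscle fibre genes 15 were lower on day 5 and 7 on day 14, with sums of 163 and 133 on day 5 and 214 and 217 on day 14, against 246 and 249 on day 0. All 11 genes of dividing cells were higher from day 3 to day 10, and all 10 fibroblast genes were higher on day 14. No marker can be said to be absent on any day, since the signals carry no detection call. The part of these cells in the course of any transporter was not tested.

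**Figure D4:**
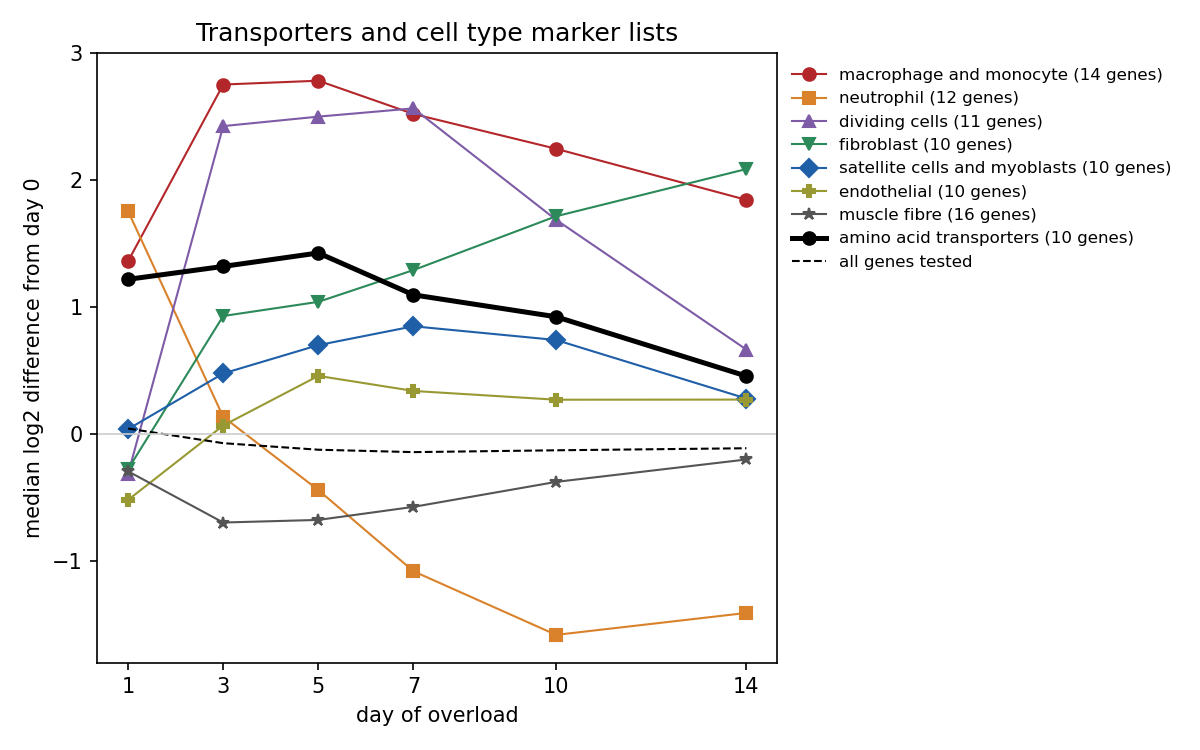
Median log2 difference from day 0 (vertical axis) on each later day (horizontal axis) for the 10 transporter genes, 7 lists of cell type markers and all genes tested (dashed). The transporter median lies between 0.46 and 1.43, the macrophage list peaks at 2.78 on day 5, the neutrophil list falls below 0 from day 5, and the muscle fibre list stays below 0.

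Other carriers of the cell surface moved both ways. On day 1, 6 of 32 such genes were higher and 7 lower (22.3% and 22.6% of all genes). Day 5 gave 6 and 13 (26.4% and 33.7%) and day 14 gave 5 and 14 (22.9% and 30.5%). The medians were 0.10, -0.21 and -0.20, against 0.04, -0.12 and -0.11 over all genes. Slc7a7 had 7.47 and 7.43 on day 0, 8.75 and 8.72 on day 1, 9.80 and 9.75 on day 3, 9.72 and 9.80 on day 5, 9.61 and 9.66 on day 7, 9.42 and 9.58 on day 10 and 9.07 and 9.23 on day 14. It rose on every later day, by 2.33 ± 0.08 on day 3 (adjusted p = 9.4e-10) and 1.70 ± 0.08 on day 14. Slc43a2, a carrier of branched-chain and other neutral amino acids, rose by 1.30 ± 0.10 on day 3, Slc38a6 by 1.62 ± 0.09 on day 10 and the glutamate carrier gene Slc1a3 by 1.12 ± 0.14 on day 10. Slc38a3, the glutamine carrier SNAT3, had 12.12 and 12.03 on day 0, 9.90 and 9.79 on day 1, 10.07 and 9.71 on day 3, 10.19 and 9.47 on day 5, 10.61 and 10.18 on day 7, 10.60 and 10.42 on day 10 and 11.37 and 11.21 on day 14. It thus stood below day 0 throughout, at -2.23 ± 0.20 on day 1 and -0.78 ± 0.20 on day 14, when Slc38a1 was 1.96 above. Slc16a10, a carrier of aromatic amino acids, stood at -1.61 ± 0.09 on day 1, and the glutamate and cysteine carrier gene Slc1a1 at -1.54 ± 0.11 on day 10.

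Carriers of the lysosome and vesicles were mostly higher. Of 13 measured genes 5 were higher and 0 lower on day 1 (22.3% and 22.6% of all genes). Days 3 and 5 each gave 9 higher and 0 lower (24.1% and 26.6% of all genes on day 3, 26.4% and 33.7% on day 5). The median was 0.61 on day 5, against -0.12 over all genes. Slc15a3, a lysosomal carrier of histidine and small peptides, rose by 2.63 ± 0.09 on day 1 and 1.07 ± 0.09 on day 14. Slc36a4 and Slc36a1, of a family of proton-coupled carriers, rose by 1.66 ± 0.10 on day 10 and by 1.18 ± 0.07 on day 3, and Mfsd12, which takes cysteine into lysosomes, by 1.22 ± 0.09 on day 3. The falls in this list were small, at most -0.38 ± 0.11 (Slc15a4 on day 14).

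**Figure D5:**
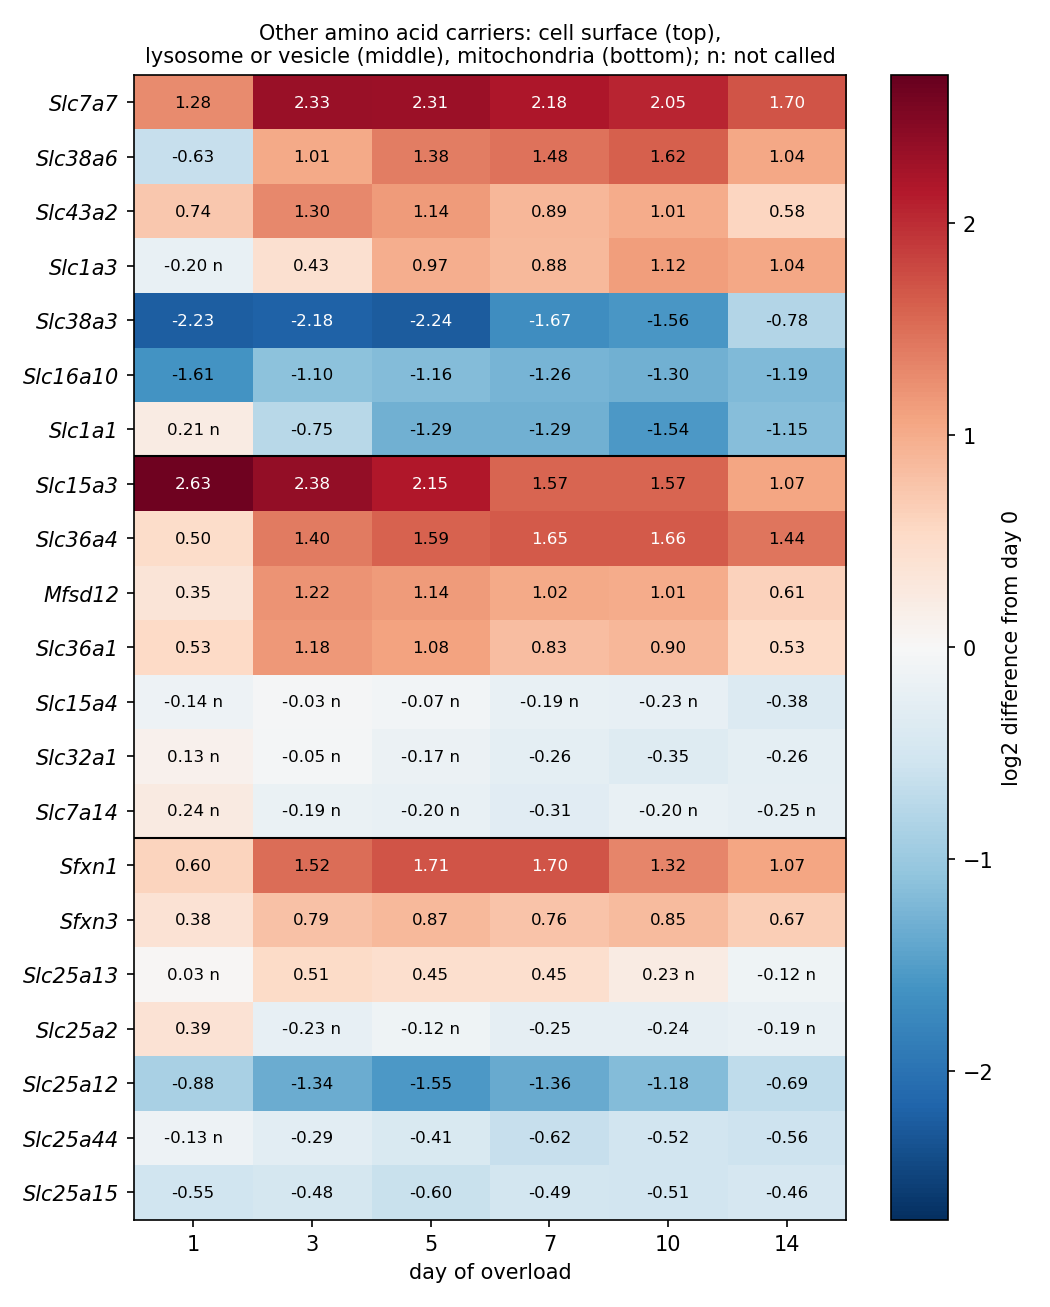
Log2 difference from day 0 (colour and number) of other amino acid carrier genes (rows) on each later day (columns), in 3 blocks for the cell surface, the lysosome or vesicles, and mitochondria. Cells marked n did not pass. Slc7a7 and Slc15a3 have the largest rises and Slc38a3 the largest fall, of 2.33, 2.63 and -2.24.

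Genes known to respond with the transporters to amino acid shortage were mostly higher on day 1. Of 26 measured genes of the ATF4 list 18 were higher and 3 lower on day 1 (22.3% and 22.6% of all genes). Day 14 gave 7 higher and 12 lower (22.9% and 30.5%). The medians were 0.52 and -0.16, against 0.04 and -0.11 over all genes. Atf4 itself was called higher on day 1 (1.05 ± 0.09, adjusted p = 1.0e-06 in limma) and not called on day 3 (0.06 ± 0.09). It was called lower on days 5, 7, 10 and 14, at -0.49, -0.45, -0.54 and -0.48, each ± 0.09. Its part in the course of the other genes was not tested. Among the genes of amino acid synthesis, Psat1, of serine synthesis, rose by 2.51 ± 0.14 on day 3, Asns, the asparagine synthetase, by 2.03 ± 0.16 on day 3 and Aldh18a1, of proline synthesis, by 2.11 ± 0.08 on day 7. Atf3, a transcription factor gene of the stress response, rose by 2.56 ± 0.19 on day 1. The 3 largest falls were these: Vldlr stood at -2.41 ± 0.18 and Gpt2, the mitochondrial alanine aminotransferase, at -2.32 ± 0.09 on day 5, and Chac1, an enzyme of glutathione breakdown, at -1.83 ± 0.15 on day 10. The list of glutathione synthesis and NRF2 targets holds genes that lie downstream of the cystine taken up by xCT or share its regulator. Of 14 measured, 9 were higher and 3 lower on day 1 (22.3% and 22.6% of all genes). Day 14 gave 3 higher and 8 lower (22.9% and 30.5%). Srxn1 rose by 2.86 ± 0.07, Txnrd1 by 1.58 ± 0.11 and Gsr by 1.36 ± 0.09 on day 1 and Hmox1 by 4.04 ± 0.13 on day 3, whereas Nqo1 stood at -2.28 ± 0.13 on day 10, Gstm1 at -1.34 ± 0.11 and Gsta3 at -0.83 ± 0.12 on day 7.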

How the data were processed

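The authors deposited log2 signals per probe set of 14 arrays, 2 for each of 7 days, already normalized between arrays. Partek is named in the submitters' processing notes, while for normalization and background correction the method is not given in the sources used. The RNA input is 100 ng by the design text and 250 ng by the labelling protocol. Of 35557 probe sets, 21789 had 1 gene symbol in the array annotation, 1621 several and 12147 none. The first kind was used, and for 999 genes with several probe sets the one with the highest mean stood for the gene, which left 19938 genes and no filter on low values.

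Day was the group in limma 3.58.1 (R 4.3.3), fitted to all 14 arrays with moderated variances (7 residual degrees of freedom, prior 4.95). All 21 differences between days were adjusted by Benjamini-Hochberg over all genes, two-sided. Sides were compared with the day as a block. Signal levels were not compared between genes. Changes from day 0 were, for the light chain genes against Slc3a2, and the marker sums add the linear signals of different genes. Whether the probe sets of different genes respond equally was not tested. Simulated data with known changes on day 3 (50 genes of each size among 19938) gave 0% recovered at 0.25, 62% at 0.5, 94% at 1 and 100% at 2 log2 units, with 8 unchanged genes called. In the data far more genes differed, with 24.1% called higher and 26.6% lower on day 3 against day 0. The adjustment was therefore stricter in the simulation, and its rates do not give the sensitivity of the reported tests. The number of arrays limits the precision.

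The 10 transporters and all gene lists were chosen with earlier results of these data known. Named genes are the 10 transporters, the up to 4 largest called rises and 3 largest called falls of each list of carriers and of related pathways, provided that neither array of that day overlapped with day 0, and the 3 genes nearest in course to each transporter. Slc7a6 was named as a partner of Slc3a2, and Atf4 as the gene that its list is called after. Promoters came from RefSeq (GRCm38.p6), and no genome or protein sequences were used here.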

Additional observations from a re-analysis of the deposited data

Results flagged for a closer look

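The 10 transporters and the genes named as the largest called rises and falls of each carrier or pathway list were screened for opposite calls. Among these, 6 were called in opposite directions on different days, with the difference between those days itself called in limma. Other named genes, such as the markers S100a8 and Retnlg, were not screened. Slc38a6, an Slc38 family carrier, stood at 1.62 on day 10 and at -0.63 on day 1, a difference of 2.25 ± 0.09 (adjusted p = 1.1e-09). The stress-induced mTORC1 regulator gene Sesn3 stood at 1.04 on day 14 and at -0.90 on day 1 (1.93 ± 0.10, adjusted p = 1.2e-08). The reverse order held for Srxn1, at -0.18 on day 10 and 2.86 on day 1 (-3.04 ± 0.07, adjusted p = 4.9e-11), for Txnrd1, at -0.47 on day 10 and 1.58 on day 1 (-2.05 ± 0.11, adjusted p = 1.6e-08), and for Gsr, at -0.37 on day 14 and 1.36 on day 1 (-1.72 ± 0.09, adjusted p = 1.7e-08). The mitochondrial carrier gene Slc25a2 stood at -0.25 on day 7 and 0.39 on day 1 (-0.65 ± 0.09, adjusted p = 1.1e-04). None of the 10 transporters of the report changed its called direction between days.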

How the results depend on the processing

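The 90 transporter and light chain differences from day 0 were recomputed under 25 alternatives, of which 3 left the light chains out. They gave 2160 values, of which 2137 kept direction and call, 10 gained a call, 0 lost one and 13 changed sign, none of these called. With the median difference set to 0, 9 in place of 8 transporters were higher on day 3 (with Slc38a2, 0.21) and 7 in place of 6 on day 14 (with Slc7a8, 0.31). There were also 7 on day 14 with an intensity trend and robust estimation (Slc7a8) and with the 4 arrays of each comparison fitted alone (Slc7a11). Relative to Slc3a2, Slc7a8 on day 1 (-0.30) and Slc7a6 on day 14 (-0.27) gained a call with quantile normalization. Under equal array medians 2 in place of 1 were lower on days 7, 10 and 14 (Slc38a2 with Slc38a4), a scaling in which the median of all genes stood at -0.29 on day 7, against -0.14 as deposited. Leaving out 1 array at a time gave 9 higher on day 1, 8 on days 3 to 10 and 6 to 7 on day 14, and 0 lower on day 1 and 1 on each later day. The 7 on day 14 came without the left array of day 0 and included Slc7a8. For none of the alternatives was the share of all genes called computed, so these counts cannot be set against it. The sign changes were those of Slc38a2 on days 5 and 7, which stood at 0.04 and 0.011 with quantile normalization, at 0.11 and 0.099 with the median difference set to 0, and at -0.069 to 0.039 and -0.096 to 0.012 when 1 array was left out, positive without the left array of day 0 and, on day 5, without the left array of that day. Slc38a4 on day 1 ranged between -0.051, without the right array of day 1, and 0.19. Relative to Slc3a2, Slc7a7 on day 1 was 0.043 with quantile normalization and ranged between -0.15 and 0.011, without the right array of day 0, Slc7a8 was -0.0099 on day 7 and -0.083 on day 10 with quantile normalization, and Slc7a11 on day 10 ranged between -0.086, without its right array, and 0.52. The cause was not tested. Side as a replicate block changed no call (9 higher and 0 lower on day 1), and the sides of different days shared little: right minus left correlated across genes at r between -0.19 and 0.35, with 6 of 21 pairs of days over 0.1, so the side was not taken as a pairing. Without detection calls, low signals such as the second probe set of Slc38a1 cannot be separated from background.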

Other observations

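Mitochondrial amino acid carriers and the leucine sensing genes were measured as well. Of 12 mitochondrial carriers 3 were higher and 5 lower on day 5 (26.4% and 33.7% of all genes). Sfxn1, a serine carrier, rose by 1.71 ± 0.13 and Sfxn3, of the same family, by 0.87 ± 0.07 on day 5, and Slc25a13, an aspartate and glutamate carrier, by 0.51 ± 0.10 on day 3. Its paralogue Slc25a12 stood at -1.55 ± 0.13 on day 5, with log2 signals of 12.15 and 11.79, against 13.52 and 13.52 on day 0. The branched-chain amino acid carrier gene Slc25a44 stood at -0.62 ± 0.09 on day 7 and the ornithine carrier gene Slc25a15 at -0.60 ± 0.08 on day 5. Of 25 genes of leucine sensing and mTORC1, 4 were higher and 9 lower on day 1 (22.3% and 22.6% of all genes). Day 14 gave 5 higher and 7 lower (22.9% and 30.5%). The leucine sensor gene Sesn2 rose by 1.99 ± 0.10 on day 1, the arginine sensor gene Castor1 by 1.13 ± 0.11 on day 10 and Seh1l, of a complex that acts upstream of mTORC1, by 0.96 ± 0.08 on day 1. Rragd, a Rag GTPase that recruits mTORC1 to the lysosome, stood at -2.09 ± 0.12 on day 5 and Castor2 at -1.19 ± 0.12 on day 1.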
